A study of Cristatella mucedo with 12 samples.

Results

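The transcripts described here were read in statoblasts of the freshwater bryozoan Cristatella mucedo and were all but missing from mature colonies. They are gene models with at most 3 counts summed over 8 mature colony libraries and at least 2 CPM (counts scaled to a library total of 1000000) in 1 or more of 4 statoblast libraries. Models on contigs 18, 32, 37, 68 and 159 and models of 150000 bases or more were set aside, which removed 17 of the 138 models that met the count limits. That left 121 of 35949 gene models. The models were thus chosen by their counts in statoblasts and in mature colonies, and the contrast between both kinds of library is given as a description without a test. The order of the statoblast stages was not used in the choice, but their levels were, since 2 CPM in 1 stage was enough. Without the freezer library the rule gave 107 models, without day 2 106, without day 4 118 and without day 6 116. Highest stages and slopes within the set are therefore not independent of the choice.

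The animals were wild type and of isolate SBPEP1. Mature colonies, collected from a stream and kept in an aquarium at room temperature, gave 8 libraries of polyadenylated RNA, with 2 each from the central zone, the edge zone, the end part and the middle part. Statoblasts had been stored at -80 °C. They were sampled straight after thawing (freezer) and after 2, 4 and 6 days in an aquarium, with 1 library per stage, so no stage had a replicate and the stage cannot be told apart from the library. Library totals were 14787598 to 26089274 counts in mature colonies and 5605092, 4738221, 5429331 and 7805888 counts in the freezer, day 2, day 4 and day 6 libraries.

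Statoblasts are the asexual resting bodies of freshwater bryozoans. Each is a mass of yolk-rich cells and germinal tissue closed between hardened, chitin-containing valves, and it is formed inside a living colony on a cord of tissue called the funiculus. On germination the tissue builds the first zooids, the feeding units of a new colony, while the stored yolk is used up. The count table gave gene names for 16 models, all mitochondrial, and for 0 of the 121. For all other identifiers no name is paired in the files, so the models are described by contig and position, and what their products do is not known from these data. The assembly behind the contigs is not named in the sources used here.

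In mature colonies these models were close to silent. Over a combined depth of 178122337 counts, all 121 models together held 120.08 counts, and 51 of them had no count in any of the 8 libraries. A further 30 had up to 1 count, 20 had more than 1 and up to 2, and 20 had more than 2 and up to 3. The summed counts were 17 in each central zone library, 14.58 and 11.5 in the edge zone, 5 and 11 in the end part, and 16 and 28 in the middle part. No mature library stood at more than 1.48 CPM for the whole set, a value reached in middle part replicate 3. A limit of 3 counts over the 8 libraries corresponds to 0.0168 CPM.

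In statoblasts the same models held 54102 counts over a depth of 23578531. The whole set stood at 3172, 2879.6, 1871 and 1604 CPM in the freezer, day 2, day 4 and day 6 libraries. As shares of the library these were 0.317% (95% Wilson interval 0.313 to 0.322), 0.288% (0.283 to 0.293), 0.187% (0.183 to 0.191) and 0.160% (0.158 to 0.163). The intervals do not overlap between stages, but they cover counting error only. In whole-body samples such as these, fewer cells of a type and less RNA per cell cannot be told apart.

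**Figure D1:**
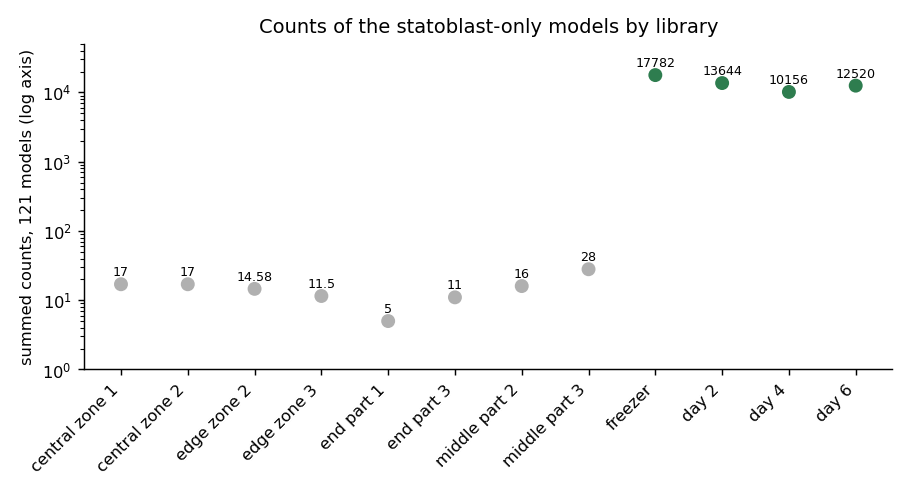
Summed counts of the 121 models in each of the 12 libraries (log axis; grey, mature colonies; green, statoblast stages). The mature libraries hold 5 to 28 counts and the statoblast libraries 10156 to 17782 counts, although the mature libraries are the deeper ones.

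A few models carried much of the signal. The 5 with the highest CPM in any stage made up 58.0% of the set in the freezer library and 48.1% at day 6, and 9 of the 121 reached 100 CPM or more in some stage. CPM is not scaled to transcript length, so these are shares of reads and not an order of transcript abundance. Without the top 5 the set stood at 1331, 1372, 1009.9 and 833 CPM over the 4 stages in order. The freezer and day 2 libraries were then near level, and day 4 and day 6 lay below them. Most models were low, with a median highest level of 5.83 CPM and quartiles of 2.85 and 18.3 CPM. Other models at 2 CPM or more in a stage, 12318 in number, had a median highest level of 26.7 CPM.

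The limits of the rule cut through a continuous range. Just inside the CPM limit lay models on contig 11 (bases 5601539 to 5615528), contig 19 (923670 to 924083) and contig 1 (1985123 to 1985994), at 2.00, 2.03 and 2.05 CPM. Just outside lay models on contigs 38 (1017157 to 1034912), 65 (2045031 to 2048026) and 42 (1770313 to 1774682), at 1.99, 1.96 and 1.96 CPM. On the mature side, the 3 strongest models at exactly 3 counts were on contigs 95, 208 and 6, with up to 132, 50.1 and 16.6 CPM in statoblasts. Just outside, at 3.5 mature counts, was a model on contig 40 (bases 2062467 to 2065718) with 538 CPM in the freezer library. Models on contigs 38 (793746 to 796979) and 9 (1865418 to 1865873) also had 3.5 counts, with 5.70 and 4.22 CPM at day 2. Among models at 2 CPM or more off the set-aside contigs, 82 had more than 3 and up to 10 mature counts.

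The 121 models did not follow one course through the statoblast stages. The highest CPM was in the freezer library for 43, at day 2 for 46, at day 4 for 18 and at day 6 for 14. In percent these were 35.5, 38.0, 14.9 and 11.6, against 30.2, 17.4, 20.2 and 32.2 for the other 12318 models at 2 CPM or more. The day 2 library was the shallowest and the day 6 library the deepest. Counting error is largest in low models of a shallow library, and its part in the day 2 share was not tested. Among the 47 models with at least 50 counts in their highest library, 20 were highest in the freezer, 14 at day 2, 8 at day 4 and 5 at day 6. In percent these were 42.6, 29.8, 17.0 and 10.6, against 32.7, 16.6, 18.8 and 31.9 for 9506 other models of that depth. Here and below, the other models were not held to the limit on mature counts. How far that limit shapes the differences in stage was not tested.

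**Figure D2:**
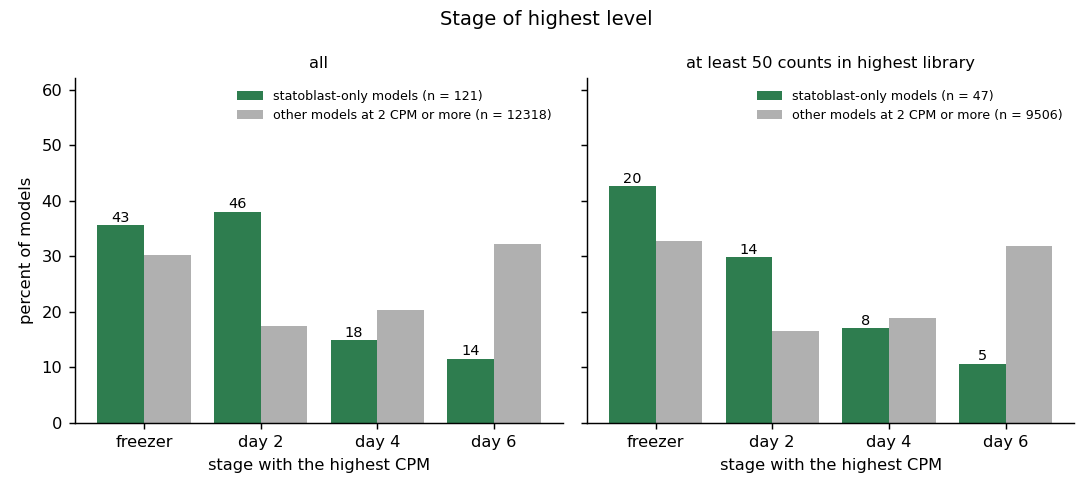
Percent of models whose highest CPM was in each stage library, for the 121 models (green, left panel; number of models above each bar), for those with at least 50 counts in their highest library (green, right panel) and for other models at 2 CPM or more (grey). In both panels day 6 is the least common highest stage for the statoblast-only models, at 11.6% and 10.6%. For the other models, which were not held to the limit on mature counts, it is the highest stage of 32.2% and 31.9%.

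The step at which most of them stood lower was that from day 2 to day 4. At day 4, 94 of 121 models (77.7%) had a lower CPM than at day 2, against 43.7% of the other models. The median log2 ratio of day 4 to day 2, with values below 3 counts raised to 3 counts, was -0.72 against 0.07. Among models with at least 50 counts it was -0.79 against 0.06, with 37 of 47 lower (78.7%) against 44.5%. The steps on either side showed smaller medians, 0.24 from the freezer to day 2 and -0.08 from day 4 to day 6, against 0.05 and 0.00 for the other models. With 1 library per stage, a difference at a single step cannot be tested. The part of the limit on mature counts, which the other models did not have to meet, was not tested either.

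**Figure D3:**
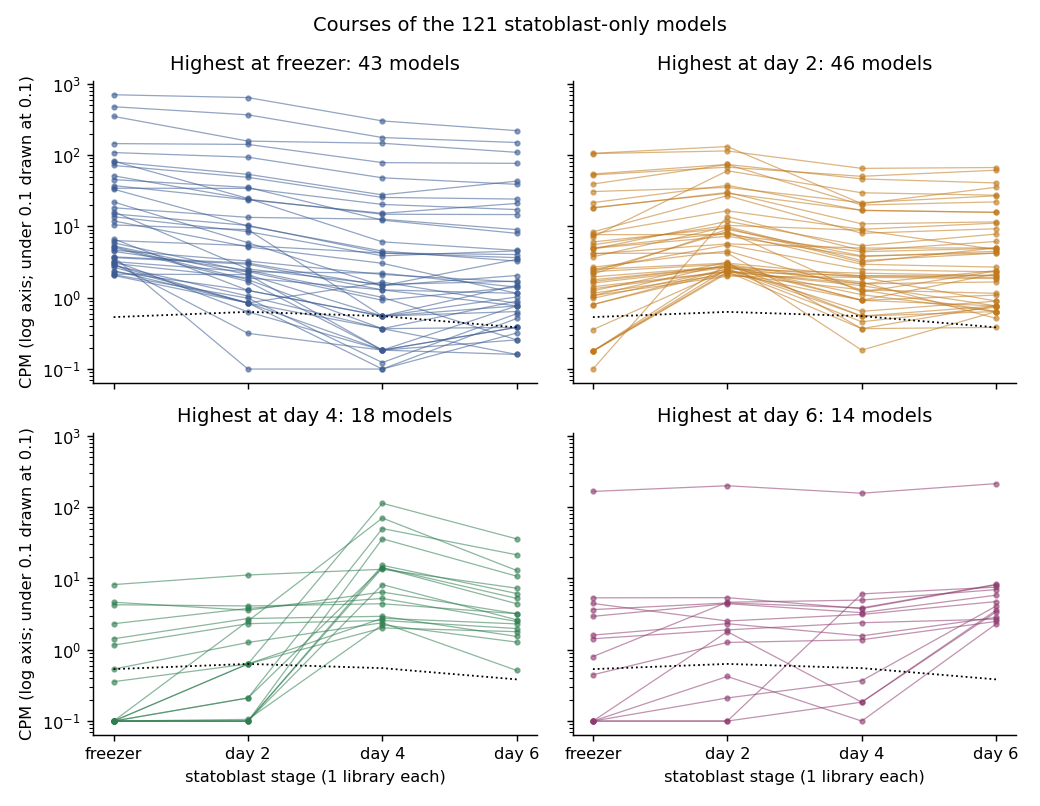
CPM (log axis) of each of the 121 models over the 4 statoblast libraries, split by the stage of the highest value. The dotted line is 3 counts in each library (0.384 to 0.633 CPM). Models highest at day 4 mostly start on or under that line. Their lower level at day 6 follows from the split.

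Of the 43 models highest in the freezer library, 22 stood lower at every later stage than at the one before. A course with no rise at any step was thus found for 18.2% of the 121, against 10.4% of the other models. A course with no fall at any step was found for 6 (4.96%), against 14.9%. The strongest of all 121 was one of the 22, a model of 423 bases on contig 8 (bases 1533681 to 1534103). It stood at 703, 641, 302 and 220.5 CPM over the 4 stages in order, with 0.5 counts over all mature libraries. Its exact Poisson intervals, which cover counting error only and are no test of the stage, ran from 681 to 725 CPM in the freezer library and from 210.2 to 231 CPM at day 6. A model on contig 24 (bases 1773460 to 1779389) stood at 477, 368, 176.5 and 150.3 CPM, with 1 mature count. A model on contig 22 (bases 915409 to 924540) stood at 350, 157, 147 and 109.5 CPM, with 2 mature counts. In this last model most of the difference lay before day 2, while the other pair differed more between day 2 and day 4. The highest level was 3.18 times the lowest in the contig 24 model and 3.19 times in the other pair.

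Of the 46 models highest at day 2, 40 had more than 3 counts in the freezer library. This is no particular trait of the class, since most models had as many. At or under 3 counts in that library were 19.8% of all 121 models and 8.76% of the other models. A model on contig 95 (bases 65706 to 69371) stood at 106, 132, 20.8 and 35.4 CPM over the stages. It had 3 mature counts and overlaps another model, so its level is uncertain. A model on contig 51 (bases 743619 to 749790) stood at 105, 115, 65.2 and 67.1 CPM, and one on contig 25 (bases 961154 to 966149) at 54.4, 74.1, 46.4 and 40.7 CPM. Both varied less than 2-fold over the series. A pair of models in this class, chosen after their values were seen, had a much lower freezer level. The first, on contig 65 (bases 1983062 to 1983340), stood at 7.14, 60.4, 29.7 and 27.4 CPM with 0 mature counts. The other, on contig 73 (bases 1243558 to 1249199), had 0 counts in the freezer library and 13.7, 4.60 and 6.15 CPM thereafter.

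A smaller group was first seen at day 4 or day 6. At or under 3 counts in both the freezer and the day 2 library were 14 models (11.6%), against 6.02% of the other models. Among those with at least 50 counts this was 14.9% against 2.96%. Of the 14, 10 were highest at day 4, and so by definition lower at day 6, and 4 were highest at day 6. Of these 4, 3 were still at 0 to 2 counts at day 4 and had 18 to 32 counts at day 6. Nothing was counted in the freezer library for 13 of the 14, and nothing in any mature library for 6. The strongest, on contig 8 (bases 8659593 to 8660693), had 0, 3, 616 and 280 counts in the freezer, day 2, day 4 and day 6 libraries and none in mature colonies. That is 0, 0.633, 113 and 35.9 CPM, with a Poisson interval of 105 to 123 CPM at day 4 and 31.8 to 40.3 CPM at day 6. A model on contig 208 (bases 177332 to 178021) stood at 0, 0.211, 50.1 and 21.5 CPM, and one on contig 118 (bases 519563 to 523020) at 0, 0, 36.0 and 10.8 CPM. The level at day 6 was 0.316, 0.428 and 0.299 of that at day 4 in these 3 models. Of the 12 libraries, that of day 4 held their highest level, and both earlier stages and the mature colonies held next to none.

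A similar course was seen in a model on contig 14 (bases 1826475 to 1834464), which had 12 counts at day 2 and so lies outside the 14. It stood at 0, 2.53, 70.4 and 12.9 CPM, with 2.5 mature counts. That the 18 models highest at day 4 stood lower at day 6 follows from how they were grouped and is no result.

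The 14 models highest at day 6 were mostly low, with a median highest level of 4.42 CPM. One was strong throughout. On contig 6 (bases 1349533 to 1358702) a model stood at 166, 199.7, 157 and 214 CPM, with 1 mature count, and its highest level was 1.36 times its lowest. The next highest, on contig 1 (bases 2273797 to 2274762), stood at 3.66, 4.54, 3.87 and 8.26 CPM, and a model on contig 19 (bases 2429966 to 2430278) at 5.35, 5.38, 3.78 and 8.13 CPM. Few of the models held one level throughout. The highest stage was under 2 times the lowest for 22 of 121 (18.2%), against 57.0% of the other models, and among those with at least 50 counts for 19.1% against 65.0%. More than 3 counts in all 4 stages were found for 78 of the 121 (64.5%), against 89.5% of the others. This share was not matched for level, and the median highest level was 5.83 CPM in the set against 26.7 CPM in the others.

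The change over the days was tested as a straight line on the log2 scale through the 4 libraries, fitted to all models with at least 20 counts over the series. Of 120 statoblast-only models tested, 5 fell (4.17%), where 0.304% of all 13174 models tested were called falling (edgeR quasi-likelihood test, adjusted p under 0.05). Only 1 rose (0.833%), where 1.37% of all models were called rising. At an unadjusted p under 0.05 there were 36 with a negative slope (30.0%, against 11.7% of all models) and 8 with a positive slope (6.67%, against 16.5%). The median slope was -0.14 log2 units per day (quartiles -0.32 and 0.04), against 0.01 (-0.09 and 0.14) for all models. The 13174 models were not held to 2 CPM in a stage or to the mature limit. The sets are thus not matched, and the difference between their slopes was not tested. A straight line describes a peak at day 2 or day 4 poorly, and none of the 64 models highest at those stages was called. All 6 calls had an adjusted p between 0.0458 and 0.0485, close to the threshold. When the freezer or the day 2 library was left out, edgeR called 0 models in either direction, with 19 and 40 of the statoblast-only models at an unadjusted p under 0.05.

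**Figure D4:**
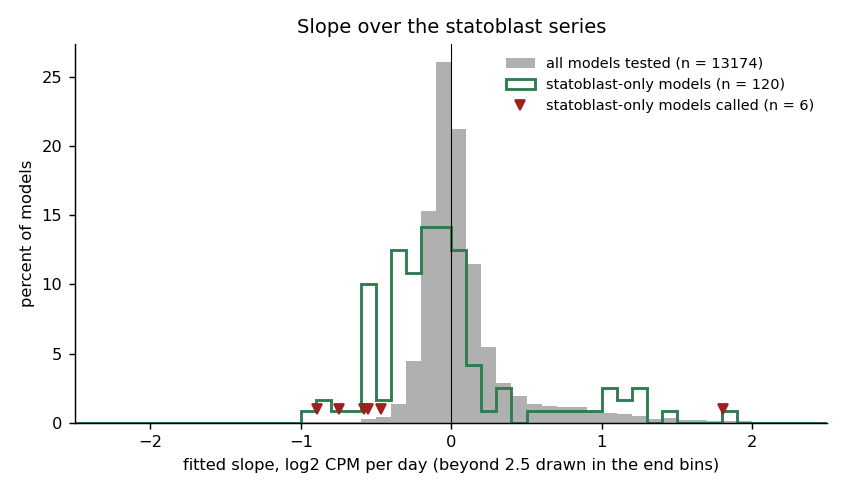
Fitted slope in log2 CPM per day over the 4 statoblast libraries, as percent of models, for all 13174 models tested (grey) and for the 120 statoblast-only models tested (green line). Red triangles mark the 6 that were called, 5 with a negative and 1 with a positive slope, and the green line is shifted towards negative slopes, with a median of -0.14 against 0.01.

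The models that fell with the steepest slopes among those that met the rule for naming were g29729 and g14148. The model g29729 (contig 477, bases 29076 to 29338) stood at 5.22 CPM in the freezer library and 1.79, 0.368 and 0.160 CPM at days 2, 4 and 6. Its slope was -0.89 log2 units per day (SE 0.14, edgeR adjusted p = 0.0485), and the last 2 values rest on 2 and 1.25 counts. A model of the same span of 263 bases on contig 93 (bases 1281925 to 1282187) had nearly the same fractional counts, 28.25, 8, 1 and 1.25 against 29.25, 8.5, 2 and 1.25, so the level of g29729 is uncertain, and whether both share reads was not tested. The recorded coverage of contig 477 was 31 times, against a median of 84 for the set. The model g14148 (contig 10, bases 4663304 to 4664391) stood at 82.4, 24.7, 6.08 and 4.61 CPM and had no mature count. Its slope was -0.75 (SE 0.08, edgeR adjusted p = 0.0458). The other 3 that fell were on contig 54 (bases 36596 to 37201), contig 5 (12074263 to 12089253) and contig 8 (1534199 to 1538027), with slopes of -0.58, -0.55 and -0.47 and edgeR adjusted p = 0.0485 for each. The contig 54 model went from 33.3 CPM in the freezer library to 3.27 CPM at day 6, and the contig 5 model from 12.0 to 1.15 CPM. The contig 8 model went from 45.4 to 8.01 CPM. The strongest model, its neighbour on contig 8, had a slope of -0.32 and did not pass (edgeR adjusted p = 0.0554). It did pass in 5 of 10 alternatives, with adjusted p from 1.75e-06 with the DESeq2 Wald test to 0.0255 in edgeR without day 4, so its call depends on the setting.

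The model that rose was g14017 (contig 10, bases 2901559 to 2901852), which lies below the level set for naming and was named after its values were seen. It had 0, 0, 1 and 28 counts in the 4 stages, or 3.59 CPM at day 6, and 3 mature counts. Its slope was 1.81 (SE 0.25, edgeR adjusted p = 0.0485). The strongest model of the day 4 group, on contig 8, had a slope of 1.44 and did not pass (edgeR adjusted p = 0.188). Its call depends on the setting, since it passed in 4 of 9 alternatives, with a DESeq2 adjusted p of 0.00397 and edgeR adjusted p of 0.00722 with day 4 and day 6 against the freezer and day 2, 8.71e-05 without day 4 and 2.31e-09 without day 6.

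Many of the 121 models lay side by side. They were spread over 51 of 547 contigs, with 29 contigs holding 1 each and contigs 1 and 8 holding 11 each. Counting overlapping models as 1 locus, 51 of 121 loci (42.1%) were next to another locus of the set, while the set makes up 0.382% of the 31657 loci. A locus can have a neighbour on each side, so these percentages are not like measures. Runs of 3 or more adjacent loci numbered 7 and held 25 models. The 31 neighbouring pairs were separated by a median of 604 bases, against 1872 bases between all adjacent loci, and in 11 pairs (35.5%) the gap was under 200 bases, against 24.5% of all adjacent loci. The table gives neither strand nor exons, so whether close neighbours are separate genes or pieces of one transcript was not tested.

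Neighbours within the set often had the same highest stage. The stage of the highest level was shared by 25 of the 31 neighbouring pairs (80.6%), against 30.1% of all 7260 pairs in the set. Pairs in the same run have models in common, so the 31 are not separate observations. The share for adjacent loci outside the set was not computed. On contig 8, 3 models between bases 8650128 and 8660693 had 0 counts each in the freezer library and 8.20, 14.1 and 113 CPM at day 4. At day 6 they stood at 2.63, 4.42 and 35.9 CPM, which is 0.320, 0.314 and 0.316 of the day 4 level. None of the 3 had a mature count. Elsewhere on contig 8, 4 models between bases 1526279 and 1538027 were all highest in the freezer library, and together they stood at 764, 686, 318 and 234 CPM. They include the strongest model of the set, and with it 1 that fell.

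On contig 10, 3 models between bases 4661910 and 4664391 were highest in the freezer library, at 3.66, 3.03 and 82.4 CPM, the last being g14148. They stood at 1.15, 0.769 and 4.61 CPM at day 6 and had no mature count. On contig 11, 3 models between bases 5589189 and 5615528 were highest at day 2, with summed levels of 58.5, 105.9, 32.8 and 34.6 CPM over the stages. On contig 6, 3 models between bases 1349533 and 1364044 stood at 227, 284, 217 and 287 CPM in sum. The first of these was highest at day 6 and the other pair at day 2.

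The longest run, 6 models on contig 1 between bases 2265707 and 2285396, had no count in any mature library. Its members were low, between 1.57 and 8.26 CPM in every stage. They summed to 19.3, 20.9, 17.9 and 27.3 CPM. Their highest stage was not shared, and was day 2, day 4 or day 6 depending on the model. The last run, 3 models on contig 19 between bases 922836 and 929076, had summed levels of 0.803, 2.53, 6.17 and 6.60 CPM over the stages in order. Its first model was highest at day 6 and the others at day 4.

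**Figure D5:**
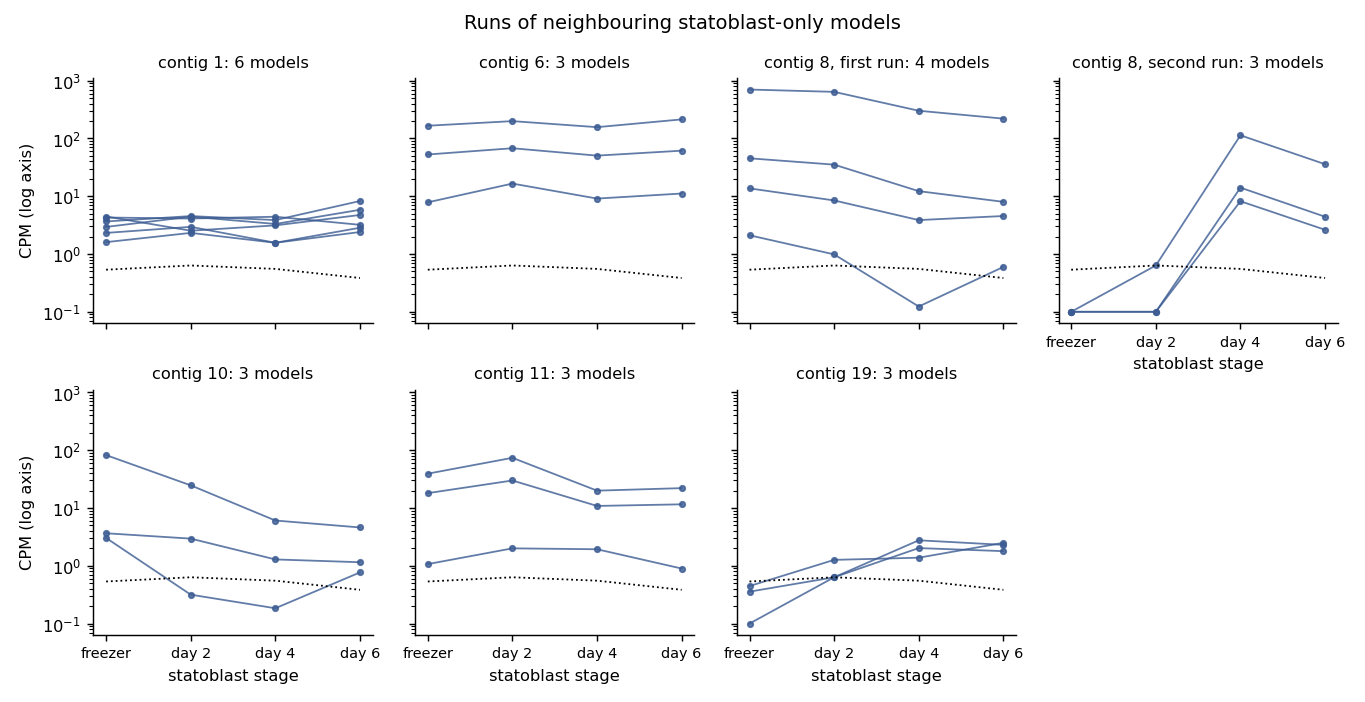
CPM (log axis, values under 0.1 drawn at 0.1) of the 25 models in the 7 runs of adjacent statoblast-only loci, over the 4 statoblast libraries, with 1 line per model. The dotted line is 3 counts per library. In the runs on contigs 8, 10 and 11 the models of a run share their highest stage. An example is the second contig 8 run, whose 3 models all start at 0 and are highest at day 4. In the runs on contigs 1, 6 and 19 the highest stage differs between models.

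Loci flanking the set were themselves often higher in statoblasts. Of 176 loci next to a member that were not members, 44 (25.0%) had a highest stage level of at least 2 CPM and at least 10 times their mean mature level, against 3.42% of the 31360 loci elsewhere. At least 1 CPM in mature colonies on average was found for 38.1% of the flanking loci and 42.0% of loci elsewhere. One example, chosen after its values were seen, lies on contig 8 between models of the set (bases 1127343 to 1134912). It stood at 61.6, 31.2, 7.92 and 9.99 CPM in the 4 stages and had 33 mature counts.

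Many of the models were short. Their median span on the contig was 1370 bases, against 14234 bases for other models at 2 CPM or more in a stage, and 51 of 121 (42.1%) were under 1000 bases, against 6.74%. Among models with at least 50 counts, 36.2% were under 1000 bases, against 3.32%. A span of 20000 bases or more was found for 1, on contig 23 (bases 99821 to 140580), against 36.8% of the others. That model was in the day 4 group, at 0, 0.211, 14.2 and 5.25 CPM, as was its neighbour (bases 142734 to 143794) at 0, 0, 15.3 and 6.15 CPM. Spans include any introns. The limit of 3 mature counts was not scaled to span, and the other models were not held to it. How far that limit shapes the spans was not tested.

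Overlap with another model was found for 3 of the 121 (2.48%), against 29.8% of the others. How far the limit on mature counts shapes this share was likewise not tested. Counts were whole numbers in all 4 stages for 45 of the 121 (37.2%), against 39.9%. The other 76 held fractions in some stage. No source used here says how fractions were assigned, so the levels of these models are uncertain to that extent. Most contigs that carry the set had a like read coverage in the assembly, as their names record it. For 106 models (87.6%) it was 70 to 99 times, against 90.6% of the other models, and the medians were 84 and 83 times. It was 100 times or more for 8 models (6.61%), against 4.17%. These include the 7 on contig 11, at 142 times.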

How the data were processed

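Polyadenylated RNA of 12 libraries was measured. Per the labels' protocols a directional kit was used, with paired-end HiSeq or single-end NextSeq runs. The submitters' processing notes name HISAT2 2.1.0 and featureCounts 1.5.1. What assembly, annotation and strand setting were used was not given in the sources used here. Deposited was a single table of estimated or expected counts, not scaled, with a column for each library and a row for each gene model. The labels speak of 2 biological replicates, but a statoblast stage has 1 library here. p-values measure the spread of 4 libraries about a line, which may be technical.

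CPM used library totals. Members, lists and limits were chosen with earlier results of these data known. Counts were rounded (stage totals moved by at most 0.00408%) and the slope per day was fitted over the 4 statoblast libraries (freezer coded as day 0; at least 20 summed counts; TMM, glmQLFit, glmQLFTest, Benjamini-Hochberg, threshold 0.05; edgeR 4.0.16, R 4.3.3) on all models, after testing on simulated data. It has 2 residual degrees of freedom. SE is the absolute slope divided by the square root of F. One member had too few counts. Alternatives included DESeq2 1.42.0, other scalings and filters, 2 groups in place of a slope, and leaving out libraries. Python 3.11.15, pandas 2.3.3, numpy 2.4.6, scipy 1.17.1 and matplotlib 3.10.9 were used.

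Named identifiers are at most 2 members that rose and 2 that fell with a monotone course and a mean log2 CPM of at least 1. By position, the 3 strongest members per highest stage, all runs and the members nearest the limits are given. No gene lists or cell type markers could be matched.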

Additional observations from a re-analysis of the deposited data

How the results depend on the processing

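The number of models follows the limits: 121 became 51 with 0 mature counts, 203 with at most 10, 224 at 1 CPM, 67 at 5 CPM and 48 at 2 CPM in every stage. Leaving out each of the 12 libraries in turn gave 106 to 134. The highest stage was freezer, day 2, day 4 and day 6 for 44, 46, 17 and 14 models with TMM-scaled library sizes, and for 20, 14, 8 and 5 of the 47 with at least 50 counts. Runs held 31 models when 1 other locus was allowed between members.

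The counts of slope calls were unstable. The 5 falling and 1 rising models became 16 and 5 with the DESeq2 Wald test, 11 and 0 with filterByExpr, which tests 49 members because it needs counts in all stages, 17 and 3 without a filter, and 12 and 8 with day 4 and day 6 against the freezer and day 2. Library totals gave 4 and 1, and DESeq2 size factors 7 and 1. Leaving out a stage gave 0 to 19 falling and 0 to 11 rising. There were 0 of each in edgeR without the freezer (19 members at an unadjusted p under 0.05) or day 2 (40), 16 and 11 without day 4, and 19 and 9 without day 6. The cause was not tested; each such fit has 3 libraries. The edgeR or DESeq2 adjusted p ran from 0.0123 to 0.0963 for g29729 over 8 alternatives, 2.82e-10 to 0.371 for g14148 over 10 and 0.00976 to 0.371 for g14017 over 8, with no change of sign in those. With filterByExpr neither g29729 nor g14017 was tested, nor was g29729 without the freezer or g14017 without day 6, because too few counts were left. With day 4 and day 6 against the freezer and day 2, g29729 (0.0546) and g14017 (0.170) did not pass, nor did g14017 with the DESeq2 Wald test (0.0895). Single slopes were compared over the alternatives only for the called models and the 3 strongest per highest stage. Among these, the slope of the contig 6 model (bases 1349533 to 1358702) turned from 0.02 to a log2 difference of -0.0563 with stages in 2 groups. It ran from -0.0330 to 0.0429 when a stage was left out. The slope of the contig 19 model (bases 2429966 to 2430278) ran from -0.143 to 0.139. Neither was called. No paired analysis was possible because the slope uses statoblast libraries alone, which are 1 per stage and carry no replicate numbers. Depth limits the low models, since 3 counts correspond to 0.384 to 0.633 CPM in the statoblast libraries.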
